A study of Rattus norvegicus with 4 samples.

Results

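The genes described here encode the mechanistic target of rapamycin (mTOR) kinase, its complex partners, the TSC-Rheb switch that controls it, and the S6 kinases that it activates. They were chosen by role, as the rows of the deposited gene table named Mtor, Rptor, Rictor, Mlst8, Akt1s1, Tsc1, Tsc2, Rheb, Rps6kb1 and Rps6kb2. All 10 were found among the 15172 genes listed and all 10 passed the filter on low counts, which left 13953 tested genes. RNA sequencing had been carried out in INS-1 832/13 cells, a rat insulinoma line that keeps glucose sensing and insulin secretion, 36 h after transfection. There were 2 libraries from cells given a non-targeting control siRNA (siScramble, labelled Scramble-transfected) and 2 from cells given an siRNA pool against Tbk1 (siTbk1, labelled TBK1-transfected), numbered replicates 2 and 3 in each group. All 4 libraries come from the same cell line in the same culture medium, and nothing in the labels says that they came from separate cultures, so p-values measure the spread between these libraries, which may be technical.

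mTOR is a serine/threonine kinase that works in a pair of complexes. In mTOR complex 1 (mTORC1), RAPTOR (Rptor) brings in the substrates and PRAS40 (Akt1s1) restrains the kinase, whereas in mTOR complex 2 (mTORC2) RICTOR (Rictor) is the defining scaffold and the kinase acts on AKT and SGK family kinases. mLST8 (Mlst8) belongs to both. The GTPase RHEB switches mTORC1 on at the lysosome, the TSC1-TSC2 complex switches RHEB off, and active mTORC1 phosphorylates S6 kinase 1 (Rps6kb1) and S6 kinase 2 (Rps6kb2), which promote translation and growth. In β-cells this pathway is known for its role in cell size, replication and insulin secretion, and it acts largely through phosphorylation, which mRNA counts do not measure.

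Total counts lay between 38428926 and 47759013 per library, so that 3 counts correspond to at most 0.0781 CPM (counts per 1000000 counted). Tbk1, the target of the siRNA, was at 53.7 and 52.5 CPM in siScramble replicates 2 and 3 and at 11.8 and 13.3 CPM in siTbk1 replicates 2 and 3 (log2 fold change −2.08, standard error 0.076). The 9 β-cell markers examined were all present, and their summed level lay between 18797 and 19856 CPM in siScramble and between 13929 and 15607 CPM in siTbk1 libraries. Of these 9, 5 fell, 2 rose and 2 did not pass. Ins1, the largest part of the sum in each library, had a log2 fold change of −0.64. Iapp rose by 0.38, Nkx6-1 rose by 0.23, and Chga was at −0.013. Of the 10 markers listed for other pancreatic or stromal cells, Gcg (glucagon, an α-cell hormone) was the one analysed here, before TMM scaling at 1341 to 1406 CPM in siScramble and 803 to 862 CPM in siTbk1 libraries. The share of counts from mitochondrial genes was 6.09% to 6.28% in siScramble and 7.92% to 8.38% in siTbk1 libraries. These values move with the treatment, and their part in the results below was not tested. In bulk RNA, fewer cells of a type and less RNA per cell cannot be told apart.

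Silencing of Tbk1 left the mRNA of the mTOR kinase itself at nearly the control level and moved its partners in opposite directions. At an adjusted p-value under 0.05, Rictor, Rps6kb1 and Rheb were higher in siTbk1-treated cells, Rps6kb2, Akt1s1, Tsc2, Rptor and Mlst8 were lower, and Tsc1 and Mtor did not pass. The 3 higher and 5 lower genes stand against 24.4% of all tested genes that were higher and 24.8% that were lower by the same rule, so that a change of this kind was common in these libraries (49.2% of genes in either direction). With a fold change of at least 1.5 required as well (0.585 on the log2 scale), 1 gene of the 10 was called, Rps6kb2, against 11% of all tested genes (6.18% lower and 4.81% higher). The median log2 fold change of the 10 genes was −0.18, beside 0.0071 for all tested genes. The libraries of the 2 groups did not overlap for any of the 10 genes, with both siTbk1 libraries above the controls for 3 and below them for 7. Among all tested genes the same held for 76.6%, above for 38.7% and below for 37.9%. Levels are given below as CPM scaled with TMM factors, which even out differences in library composition, and levels of different genes were not compared, since no transcript lengths were used here.

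**Figure D1:**
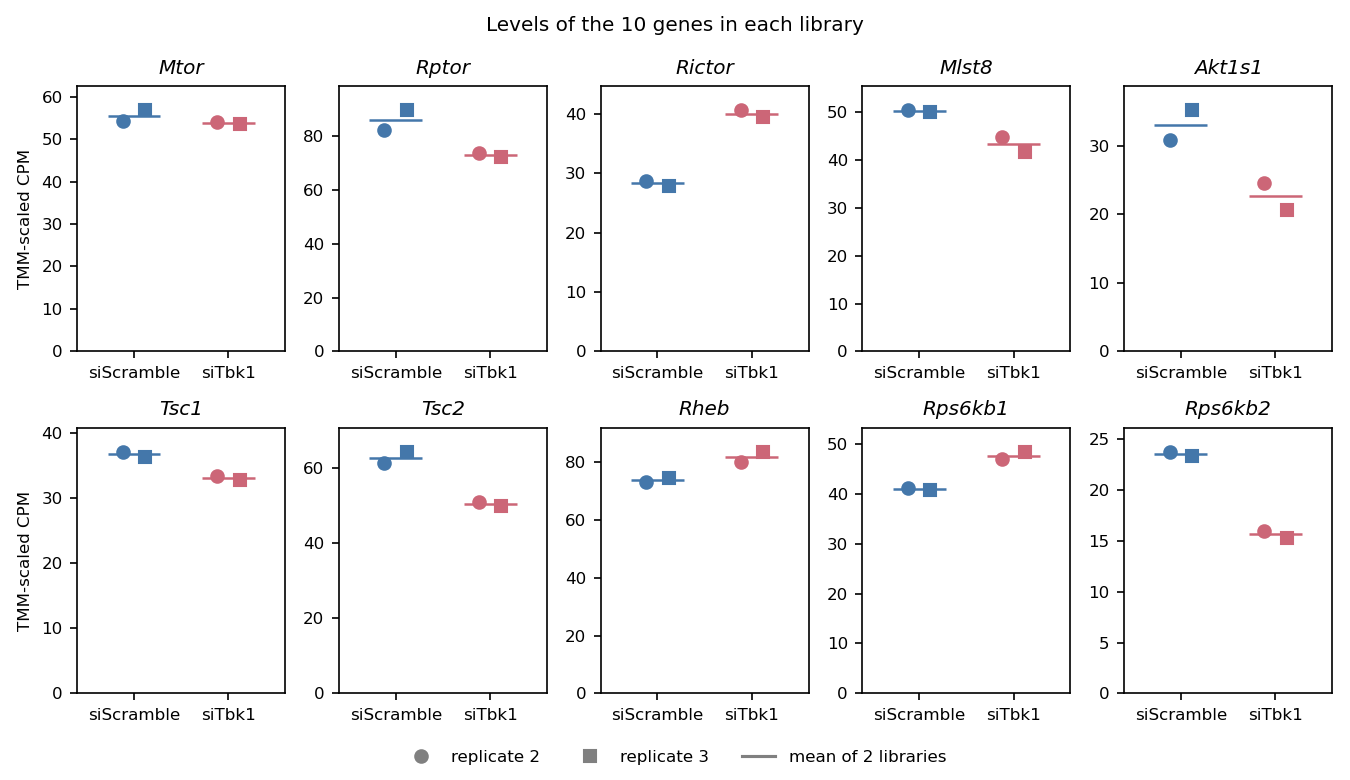
Level of each of the 10 genes (vertical axes, TMM-scaled CPM, from 0) in the 2 siScramble (blue) and 2 siTbk1 (red) libraries, with circles for replicate 2, squares for replicate 3 and lines for group means. Rictor, Rheb and Rps6kb1 lie higher in the siTbk1 libraries and the other 7 genes lie lower, with Mtor almost level (55.5 against 53.8 CPM on average).

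Within mTORC1, Mtor had a smaller change than Rptor, Akt1s1 and Mlst8 in the reported fit, but its difference from them was not tested. The 95% intervals of Rptor (−0.37 to −0.10) and Mlst8 (−0.35 to −0.075) overlapped that of Mtor. After the correction for genomic span described below, Mtor was at −0.15 and Mlst8 at −0.11. Mtor, listed on chromosome 5 from 165263800 to 165373968 (build rn6, as named in the submitters' processing notes), was at 54.2 and 56.8 CPM in the siScramble libraries and at 54.1 and 53.5 CPM in the siTbk1 libraries. The groups did not overlap, but the gap was far smaller than the spread between the control libraries. Its log2 fold change was −0.043 (95% interval −0.17 to 0.086, adjusted p = 0.58 from edgeR), so the interval leaves out any change near 1.5-fold. The estimated counts of Mtor and Tsc2 were not whole numbers, which is called split reads below. How such counts arose is not given in the sources used here. Rptor, on chromosome 10 from 108750620 to 109058692, was at 82.2 and 89.7 CPM in siScramble and at 73.9 and 72.2 CPM in siTbk1 libraries. It was lower in both siTbk1 libraries by more than the spread within either group (log2 fold change −0.23, standard error 0.061, adjusted p = 0.0073, edgeR). The log2 ratio was −0.15 for the replicates numbered 2 and −0.31 for those numbered 3, and without siScramble replicate 3 the fold change of Rptor was −0.17 with an adjusted p of 0.075 (edgeR). Over 17 other ways of fitting that test for any change, which are named with the processing, its adjusted p lay between 7.0e-05 and 0.075.

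Akt1s1, the PRAS40 gene on chromosome 1 from 100845563 to 100851961, was at 30.8 and 35.2 CPM in siScramble and at 24.6 and 20.7 CPM in siTbk1 libraries. It was among the largest falls of the 10 genes, at 31.1% below control (log2 fold change −0.54, standard error 0.092, adjusted p = 0.00050, edgeR), although its replicates were the least alike. The log2 ratio was −0.32 in one same-numbered pair and −0.77 in the other, with the lowest value in siTbk1 replicate 3. Mlst8, which encodes the WD-repeat subunit bound to the kinase domain, was at 50.4 and 50.0 CPM in siScramble and at 44.9 and 41.8 CPM in siTbk1 libraries (log2 fold change −0.21, standard error 0.063, adjusted p = 0.014, edgeR). Without siTbk1 replicate 3, the adjusted p of Mlst8 was 0.14, within a range of 0.0052 to 0.32 over its 17 alternatives. Deptor, an inhibitory subunit found in both complexes, was also lower, from 37.0 and 38.4 CPM to 32.7 and 31.2 CPM (log2 fold change −0.24).

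The mTORC2 scaffold went the other way. Rictor, listed on chromosome 2 from 56052643 to 56101804, was at 28.8 and 27.9 CPM in siScramble and at 40.7 and 39.4 CPM in siTbk1 libraries. Both siTbk1 libraries lay well above both controls, and the replicates of each group lay close together. Its level rose by 41.3% (log2 fold change 0.50, 95% interval 0.36 to 0.64, adjusted p = 7.8e-05, edgeR), and the log2 ratio was 0.50 in either same-numbered pair. It passed an adjusted p of 0.05 in all 17 alternatives, with a fold change of 0.43 to 0.52 on the log2 scale, which is short of the 1.5-fold limit. Mapkap1, which encodes SIN1, the substrate-binding subunit of mTORC2, rose with it, from 25.2 and 25.9 CPM to 30.5 and 33.7 CPM (log2 fold change 0.33). Prr5, the gene of the RICTOR-binding subunit Protor-1, fell from 92.2 and 101.0 CPM to 74.3 and 73.7 CPM (log2 fold change −0.38), so that mTORC2 genes did not all move together. Rows named for RNA families are listed across the whole of Rictor (RF00002 and RF00003), Mtor (RF00026), Akt1s1 (RF00156) and Rps6kb1 (RF01848). RF00002, listed on the strand opposite to Rictor, did not pass (log2 fold change −0.43, adjusted p = 0.10, edgeR). Its estimated counts overlapped between groups, at 220 and 291 in siScramble and 235 and 139 in siTbk1 libraries. Whether the listed range of such a row is that of 1 transcript was not tested.

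In the TSC-Rheb switch, Tsc2 was lower, and Tsc1 and Rheb showed smaller differences. Tsc2, whose protein carries the GTPase-activating domain that turns RHEB off, is listed on chromosome 10 from 13961947 to 13996585 and was at 61.3 and 64.3 CPM in siScramble and at 51.1 and 50.1 CPM in siTbk1 libraries. This fall of 19.4% (log2 fold change −0.31, standard error 0.060, adjusted p = 0.0010, edgeR) was larger than the spread within either group. The table gives Tsc2 a 63-base overlap with Pkd1 on the opposite strand, and Pkd1 had a log2 fold change of −0.21. The strand setting of the counting is not given in the sources used here, so reads in the overlap may belong to either gene. Tsc1, which encodes the stabilising partner of TSC2 and lies on chromosome 3 from 7237192 to 7265146, was at 37.1 and 36.4 CPM in siScramble and at 33.4 and 32.7 CPM in siTbk1 libraries. Its libraries did not overlap either, but with a log2 fold change of −0.15 (95% interval −0.29 to −0.012) its adjusted p was 0.067 (edgeR; 0.022 to 0.26 over 17 alternatives). The gene of the third TSC subunit, Tbc1d7, had a log2 fold change of −0.050 (adjusted p = 0.68, edgeR).

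Rheb, on chromosome 4 from 6827429 to 6873384, was at 73.1 and 74.5 CPM in siScramble and at 79.9 and 83.4 CPM in siTbk1 libraries. The siTbk1 libraries lay above the controls by a margin of the same order as the difference between them. Its log2 fold change was 0.15 (95% interval 0.022 to 0.27) and its adjusted p, 0.0499 in edgeR, was barely under the limit. In 12 of 17 alternatives Rheb no longer passed, among them each of the fits that left out a library (log2 fold change 0.12 to 0.16), and its adjusted p ranged from 0.040 to 0.43. Its close relative Rhebl1 had a log2 fold change of −0.079 (adjusted p = 0.48, edgeR).

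The S6 kinase genes moved apart. Rps6kb1, listed on chromosome 10 from 73824202 to 73865365, was at 41.0 and 40.7 CPM in siScramble and at 46.9 and 48.3 CPM in siTbk1 libraries. It rose by 16.4% (log2 fold change 0.22, standard error 0.060, adjusted p = 0.0098, edgeR). Without siTbk1 replicate 3 its adjusted p was 0.070 and its log2 fold change 0.20, and the adjusted p ranged from 0.0036 to 0.10 over the 17 alternatives. Rps6kb2, on chromosome 1 from 219406202 to 219412889, was at 23.7 and 23.3 CPM in siScramble and at 16.0 and 15.3 CPM in siTbk1 libraries. Its 2 siTbk1 libraries were close to each other and far below both controls, a fall of 33.4% (log2 fold change −0.59, 95% interval −0.75 to −0.42, adjusted p = 7.2e-05, edgeR). The estimate sits just past the 1.5-fold limit and its interval spans it, so the call at 1.5-fold turned on the setting, while an adjusted p under 0.05 held in all 17 alternatives.

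**Figure D2:**
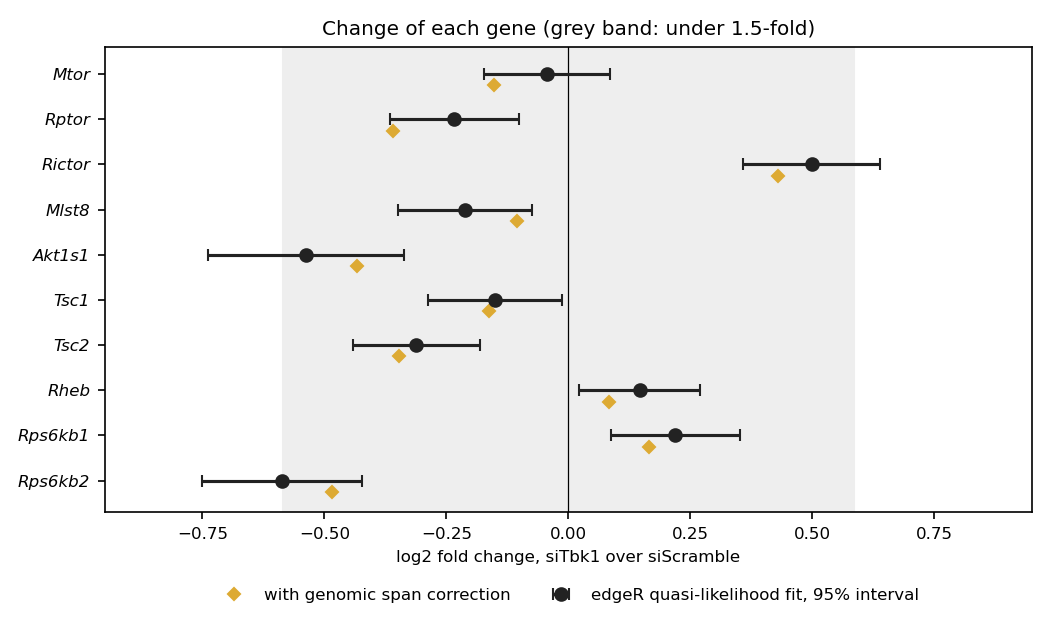
Log2 fold change (horizontal axis, siTbk1 over siScramble) of each gene with its 95% interval from the edgeR fit (black) and after a correction for genomic span (yellow diamonds); the grey band marks changes under 1.5-fold. The interval of Mtor crosses 0, Rictor stands alone at 0.50 on the right, and Akt1s1 (−0.54) and Rps6kb2 (−0.59) are farthest to the left.

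Ratios of 2 genes counted in the same library do not depend on how libraries are scaled. There were 1.73 and 1.75 reads of Rps6kb1 for each read of Rps6kb2 in the siScramble libraries and 2.93 and 3.15 in the siTbk1 libraries, a 1.75-fold higher ratio (difference of log2 ratios 0.81, within-group SD 0.0098 and 0.073, n = 2 each). The ratio of Rptor to Rictor went from 2.86 and 3.21 in siScramble to 1.82 and 1.83 in siTbk1 libraries, or 0.602 times the control ratio (difference −0.73, SD 0.12 and 0.0074). Both shifts were much larger than the spread within a group. Smaller shifts were found for Tsc1 to Tsc2, from 0.604 and 0.565 to 0.654 and 0.654, and for Rheb to Mtor, from 1.35 and 1.31 to 1.48 and 1.56. Each of the 4 ratios separated the groups fully, as 76.6% of single tested genes did. The share of other gene pairs that do so was not computed. With 2 libraries a side the exact permutation test (two-sided) cannot give a p below 0.333, the value it gave for all 4. The ratio shifts follow from the fold changes given above and are not further evidence.

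**Figure D3:**
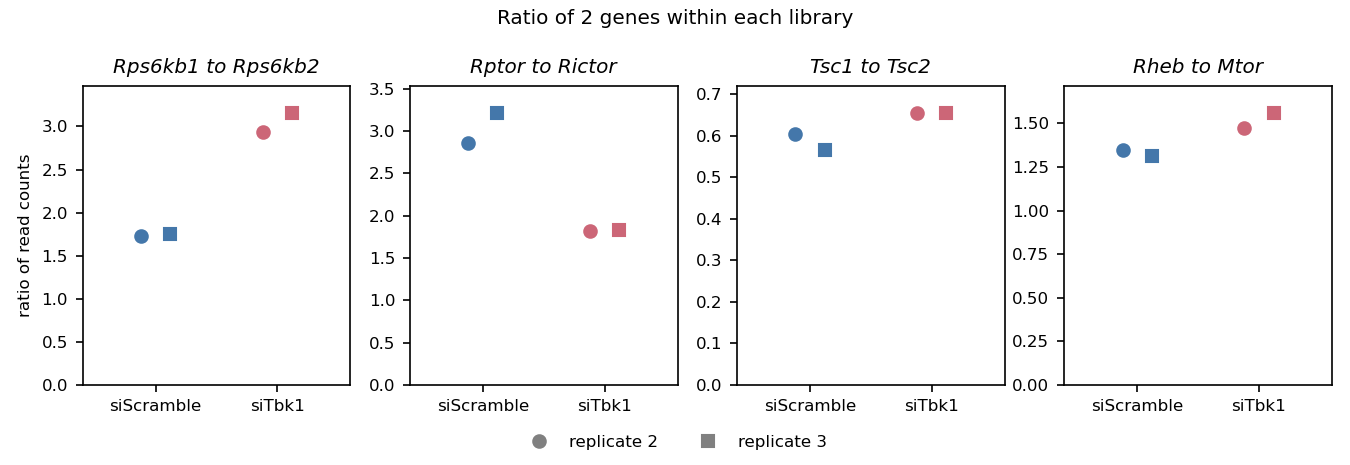
Ratio of read counts of 2 genes within each library (vertical axes, from 0) for the 4 pairs compared, by treatment, with circles for replicate 2 and squares for replicate 3. The ratio of Rps6kb1 to Rps6kb2 lies at 1.73 and 1.75 in siScramble and at 2.93 and 3.15 in siTbk1 libraries, and that of Rptor to Rictor falls from 2.86 and 3.21 to 1.82 and 1.83.

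Changes in these libraries varied with the genomic span of a gene, the distance from its listed start to its stop. Among the 4522 tested genes with a span under 10 kb, 30.8% were lower and 14.6% higher at an adjusted p under 0.05, whereas among the 1757 genes over 100 kb 14.0% were lower and 34.0% higher. The 3 shortest of the 10 genes, Mlst8 (5.75 kb), Akt1s1 (6.40 kb) and Rps6kb2 (6.69 kb), were all lower in siTbk1-treated cells. Rptor, the longest at 308 kb, was lower as well, against the trend of long genes. When each library's trend along span was removed, the log2 fold change was −0.48 for Rps6kb2, −0.43 for Akt1s1, −0.36 for Rptor, −0.35 for Tsc2 and 0.43 for Rictor, all with an adjusted p of at most 0.0019 (edgeR). Mlst8 dropped to −0.11 (adjusted p = 0.18) and Rheb to 0.082 (adjusted p = 0.25) and no longer passed, Tsc1 at −0.16 came just under the limit (adjusted p = 0.0498), and Mtor moved to −0.15 (adjusted p = 0.053; all from edgeR). None of the 10 genes reached 1.5-fold after this correction, against 658 higher and 753 lower genes among all tested. The part of span, or of anything that goes with it, in the results was not tested further.

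**Figure D4:**
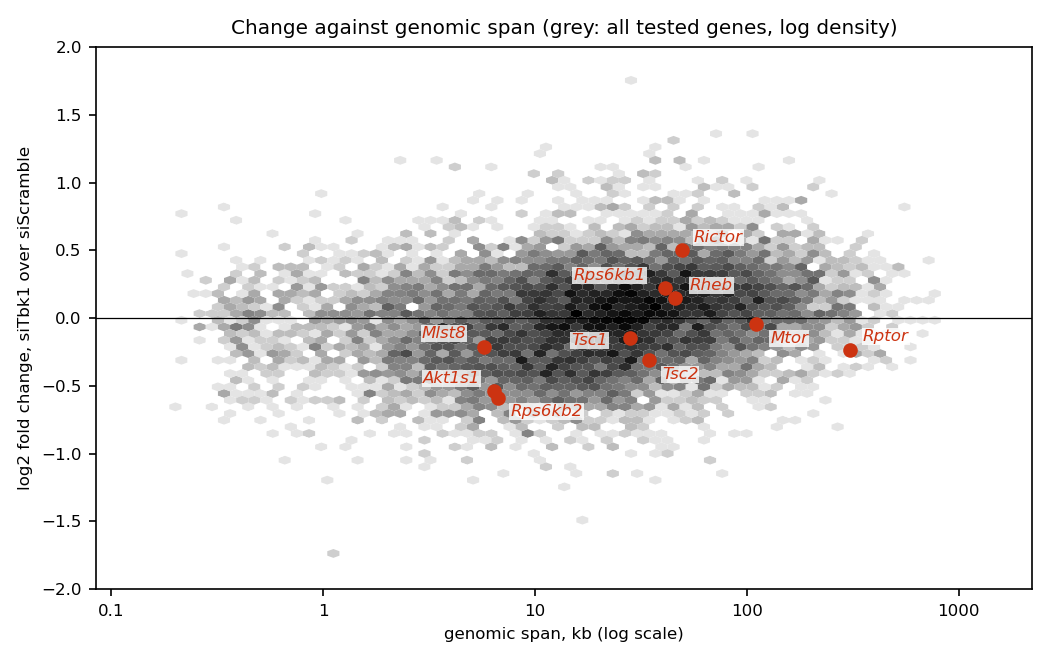
Log2 fold change (vertical axis, siTbk1 over siScramble) against genomic span in kb (horizontal axis, log scale) for the 10 genes in red and for 13907 tested genes as grey density; 46 genes beyond 2 on the log2 scale, or over 1500 kb, are not shown. Mlst8, Akt1s1 and Rps6kb2 lie together at about 6 kb and below 0, and Rptor lies below 0 at 308 kb.

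The wider pathway was followed with lists written from the roles of the genes. Of 81 further genes tested, 19 were higher and 26 lower at an adjusted p under 0.05, with a median log2 fold change of −0.050, and 3 and 2 of them passed 1.5-fold. The shares of all tested genes by the same rules, against which the counts of each list are to be read, were 24.4% higher and 24.8% lower, and 4.81% and 6.18% at 1.5-fold. Among the other subunits and assembly factors, 5 of 8 fell and 1 rose (median −0.31). The largest falls were those of Ruvbl2 (log2 fold change −0.55) and Ruvbl1 (−0.49), whose ATPases help to assemble mTOR and related kinases, and Telo2, a co-chaperone gene of the same route, fell by 0.37. The counts of Ruvbl1 include split reads.

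At the lysosome, where amino acids switch mTORC1 on through the Rag GTPases, 2 of 10 genes rose and 2 fell (median 0.040). Slc38a9, the arginine-sensing transporter, rose from 16.1 and 15.3 CPM to 23.04 and 24.1 CPM (log2 fold change 0.58), and Rragc, which encodes RagC, rose by 0.36 on the same scale. Fnip2, a folliculin partner, fell from 130.7 and 137.5 CPM to 91.8 and 89.96 CPM (log2 fold change −0.56, counts with split reads), and the Ragulator gene Lamtor4 fell by 0.37. GATOR1, GATOR2 and KICSTOR link amino acid supply to mTORC1. Of their 10 tested genes, 4 fell and the other 6 did not pass (median −0.090). Wdr24, whose product belongs to GATOR2, was at −0.55. Among 6 amino acid sensor genes, Sesn3 (log2 fold change 0.40) and Bmt2, the SAMTOR gene (0.38), rose and the other 4 did not pass.

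AMPK and its activator LKB1 restrain mTORC1 through TSC2 and RAPTOR, and 5 of the 11 genes in this list fell while 2 rose (median −0.15). Stk11, which encodes LKB1, went from 32.0 and 35.1 CPM to 26.2 and 22.9 CPM (log2 fold change −0.45). The catalytic AMPK subunits moved oppositely, Prkaa2 at −0.36 and Prkaa1 at 0.33. Ddit4, a stress-induced activator of the TSC complex also called REDD1, was at 10.6 and 10.6 CPM in siScramble and at 9.74 and 9.14 CPM in siTbk1 libraries and did not pass (log2 fold change −0.16, adjusted p = 0.17, edgeR).

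The list of AKT and SGK kinases, on which mTORC2 acts, also holds PDK1 and the PHLPP phosphatases. It had the largest rise of all the lists. Sgk3 went from 6.66 and 6.01 CPM to 13.2 and 15.4 CPM (log2 fold change 1.17, standard error 0.11, adjusted p = 9.8e-06, edgeR). Akt1 and Akt2 fell (log2 fold changes −0.47 and −0.23). In this list of 9 genes 3 rose and 2 fell, with a median of 0.062.

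Genes whose proteins mTORC1 or S6 kinases phosphorylate gave 2 rises and 4 falls among 14 tested (median −0.085). Grb10, an adaptor that dampens insulin signalling, was scarce and fell from 2.67 and 2.80 CPM to 1.15 and 1.35 CPM (log2 fold change −1.13, standard error 0.19). Cad, whose product starts pyrimidine synthesis, was at −0.54 and Ulk1, the autophagy kinase, at −0.36, while Pdcd4, an inhibitor of translation initiation, rose by 0.21. Rps6, the ribosomal protein from which S6 kinases take their name, was at 403.7 and 371.3 CPM in siScramble and at 421.1 and 427.0 CPM in siTbk1 libraries and did not pass (log2 fold change 0.13, adjusted p = 0.069, edgeR, counts with split reads), although it did without siScramble replicate 2 (0.19, adjusted p = 0.025) and after the span correction (0.23, adjusted p = 0.0093). Without siScramble replicate 3, Rps6 was at 0.070 (adjusted p = 0.49, edgeR). Eif4ebp1 was not analysed here.

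All 8 tested genes of the p90 S6 kinases and their relatives passed, 4 higher and 4 lower (median 0.023), where 49.2% of all tested genes passed in either direction. The RSK and MSK kinases among them act downstream of ERK or p38 rather than directly of mTOR. Rps6ka2 (RSK3) went from 100.6 and 107.4 CPM to 190.2 and 180.0 CPM (log2 fold change 0.83, adjusted p = 1.1e-06, edgeR) and Rps6ka3 (RSK2) was at 0.55, whereas Rps6ka1 (RSK1, split reads) and Rps6ka4 (MSK2) were at −0.30 and −0.35. Rps6kl1 had the most negative value (−1.11), at no more than 1.44 CPM in any library, and without siScramble replicate 3 it did not pass (−0.93, adjusted p = 0.052, edgeR). Among 5 relatives of Rheb and of the TSC GTPase-activating domain, 3 rose and the other 2 did not pass (median 0.17), with Ralgapa1 at 0.55 and Sipa1l1 at 0.25, both with split reads. Sipa1l1 did not pass without siTbk1 replicate 2 (0.20, adjusted p = 0.089, edgeR) or after the span correction (0.15, adjusted p = 0.095).

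**Figure D5:**
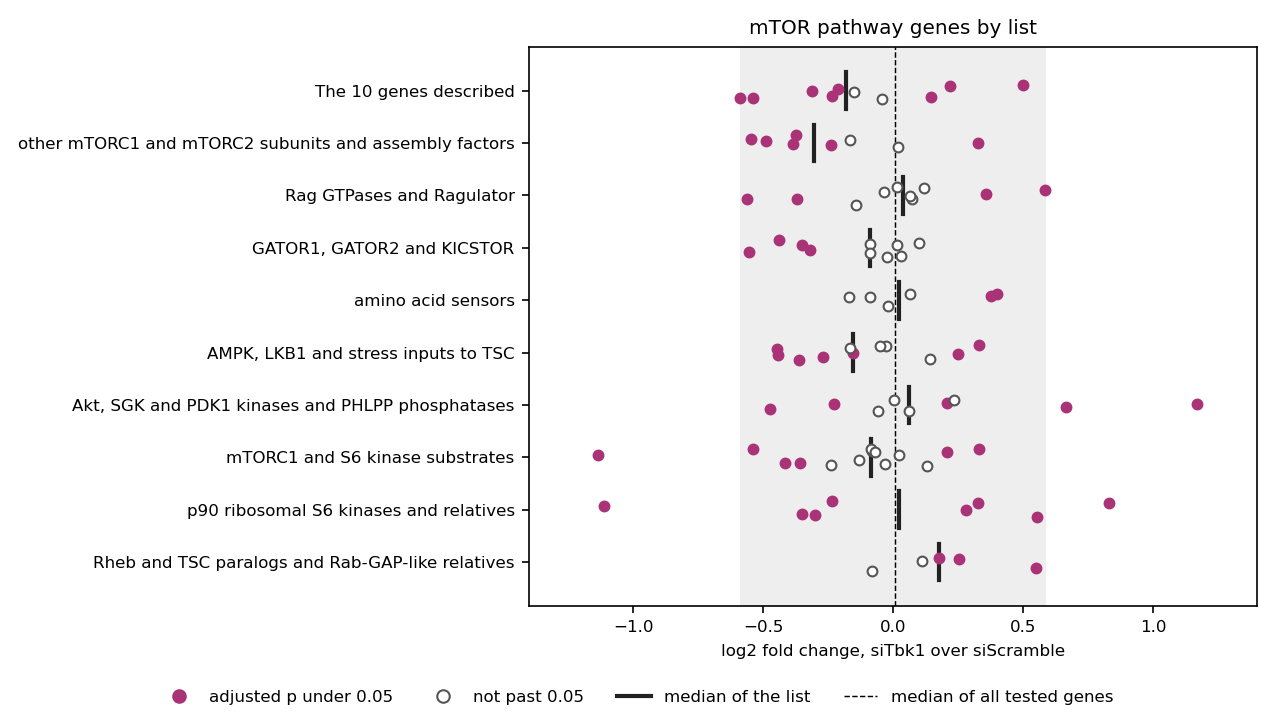
Log2 fold change (horizontal axis, siTbk1 over siScramble) of every tested gene of each list; filled points passed an adjusted p of 0.05, open points did not, thick bars are list medians and the dashed line is the median of all tested genes (0.0071). Most points lie inside the grey band of changes under 1.5-fold, and Sgk3 at 1.17, Grb10 at −1.13 and Rps6kl1 at −1.11 lie farthest out.

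RefSeq promoter sequences on build GRCr8 were matched by symbol for 9 of the 10 genes, all but Rptor. They are shown for the 3 genes with the largest changes, on the gene's own strand, so that the gene that rose can be set beside those that fell. The window runs from 250 to 51 bases before the RefSeq start, and for Akt1s1 it begins 220 bases before it, where the neighbouring gene Tbc1d17 ends. Capitals mark matches to the letters searched.
Rictor, higher, chr2:57539029-57539228, + strand: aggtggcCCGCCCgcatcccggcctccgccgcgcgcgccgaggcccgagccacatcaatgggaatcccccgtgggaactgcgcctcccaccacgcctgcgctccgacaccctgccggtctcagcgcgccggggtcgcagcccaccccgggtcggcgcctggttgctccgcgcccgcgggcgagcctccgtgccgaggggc
Akt1s1, lower, chr1:104469616-104469785, + strand: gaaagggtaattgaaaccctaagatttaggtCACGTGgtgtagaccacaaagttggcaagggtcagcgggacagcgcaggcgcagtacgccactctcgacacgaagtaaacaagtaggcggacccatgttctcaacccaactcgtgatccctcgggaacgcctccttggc
Rps6kb2, lower, chr1:210887562-210887761, − strand: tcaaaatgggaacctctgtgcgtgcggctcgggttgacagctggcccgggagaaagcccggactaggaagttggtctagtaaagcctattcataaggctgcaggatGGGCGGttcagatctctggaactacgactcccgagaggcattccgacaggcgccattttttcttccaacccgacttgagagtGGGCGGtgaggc

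The Rictor window was rich in G and C (78.5%, against 53% for the 200 bases of Akt1s1, 56.5% for Rps6kb2 and a median of 51% over all 27457 promoters). The letters searched, on both strands, were GGGCGG (the GC box), CACGTG (an E-box read by MYC and TFEB family factors), TGACG (part of a cAMP response element), CCAAT and CCGGAAG (an ETS site), none of which shares letters in these windows with another. GGGCGG was found in 4 of the 9 windows (Mtor, Rictor, Tsc2 and Rps6kb2), against 25.9% of all promoters, and so on both sides of the change. CACGTG was found in Akt1s1, which fell, and in Rheb (4.31% of all promoters). Rheb was higher by a margin barely under the limit (adjusted p = 0.0499, edgeR) and did not pass after the span correction. TGACG was found in Tsc1 and Rheb (14.1%), CCAAT in Mtor and Mlst8 (29.3%), and CCGGAAG in none of the 9 (4.83%).

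From 9130 other genes averaging 10 CPM or more, those whose 4 log2 values, centred on their mean, lay closest to the pattern of Rictor were Unc5d, Dtx3l and Mtnr1a, with a root mean square difference of 0.0039 to 0.0081. For Rps6kb2 they were AABR07027555.1, Nudt3 and Cttnbp2, at 0.022 to 0.024. Unc5d, for example, was at 26.4 and 25.7 CPM in siScramble and at 37.4 and 36.5 CPM in siTbk1 libraries. Likeness over 4 libraries is a description only.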

How the data were processed

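Stranded poly(A) RNA libraries of INS-1 832/13 cells (2 siScramble, 2 siTbk1) were analysed from the gene table deposited by the authors. It holds estimated counts per gene, not scaled between samples, and per the labels STAR 2.6.1d, Partek and build rn6 were used. The counting step and its strand setting are not given in the sources used here. Genes with estimated counts that are not whole (by more than 0.01) are said to have split reads. How such counts arose is not given either.

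Groups were taken from the transfection label. Counts were rounded, filtered with filterByExpr (minimum count 10, 1219 genes removed), scaled with TMM factors (0.982 to 1.02) and tested over all 13953 genes with the quasi-likelihood test of edgeR 4.0.16 (R 4.3.3) and Benjamini-Hochberg adjustment, with treatment as the only term. Standard errors come from the fold change and its F statistic, and 95% intervals use the test's degrees of freedom. With 2 libraries per group, precision is limited by their number. A fall or rise is stated at an adjusted p under 0.05.

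The members and lists were chosen with earlier results of these data known. Named genes are the 10 members, Tbk1, the genes past 1.5-fold in each list (otherwise the 2 with the smallest adjusted p), Rps6, Ddit4 and the 3 genes nearest in pattern to the members with the largest rise and fall. Ins1, Iapp, Nkx6-1, Chga, Gcg, Deptor, Mapkap1, Prr5, Pkd1, Tbc1d7, Rhebl1, Telo2, Rragc, Lamtor4, Prkaa1, Akt1, Akt2, Cad, Ulk1, Pdcd4, Rps6ka1, Rps6ka3 and Rps6ka4 were added after their values were seen. Some genes that the rule would name are not reported here.

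Alternatives were a replicate block, the likelihood ratio and exact tests, DESeq2 1.42.0, limma-voom (limma 3.58.1), upper quartile and DESeq2 size factors, library size alone, no filter, 10 counts in every sample, glmTreat, thinning, a loess correction for genomic span (span 0.5) with and without the block, and leaving out each library. The tests were checked on simulated counts. Figures used matplotlib 3.10.9.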

Additional observations from a re-analysis of the deposited data

How the results depend on the processing

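Rictor, Akt1s1, Tsc2 and Rps6kb2 kept their direction and an adjusted p under 0.05 in all 17 alternatives that test for any change, and no alternative reversed a member. Over all genes, glmTreat called 163 higher and 101 lower genes, against 671 and 862 in the reported fit, and fits without 1 library called 552 to 756 higher and 574 to 1159 lower genes (574 without siScramble replicate 3). In such fits the lone library is assumed to vary like the other group. Library size alone shifted the median log2 fold change of all genes to −0.040 and the share of higher calls from 43.8% to 34.1%. Among the members, 1 was lower by at least 1.5-fold, and this became 0 with upper quartile factors, glmTreat, and the genomic span correction with or without the replicate block, 2 with library size alone, and 0 to 2 without 1 library (2 without siTbk1 replicate 2, 0 without siTbk1 replicate 3). At an adjusted p alone, 3 members were higher, which became 2 with the replicate block, 1 with the span correction and the replicate block together, and 1 to 2 without 1 library (1 without siTbk1 replicate 3). The 5 lower members stayed at 5 with the replicate block. They became 4 with the span correction and the replicate block together, and 6 with library size alone. Among the other pathway genes, the 2 lower by at least 1.5-fold became 6 with library size alone, 0 with glmTreat and 1 to 6 without 1 library (1 without siScramble replicate 3, 5 without siScramble replicate 2, 6 without siTbk1 replicate 2), and the 3 higher became 3 to 5 without 1 library (5 without siScramble replicate 2). Replicate numbers name the samples and do not pair them by any label: deviations of same-numbered samples had a correlation of 0.0041 over all 13953 tested genes (Spearman −0.20) and of −0.39 over the 7945 that averaged 4 or more in log2 CPM (Spearman −0.43). A crossed pairing, chosen after seeing the data, gave 3 higher and 6 lower members. For Rheb to Mtor, the difference of log2 ratios (0.19) was 0.13 and 0.25 in the same-numbered pairs. The lowest count of a member in a library was 578 (Rps6kb2, siTbk1 replicate 3). The cause of these shifts was not tested.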
